A study of Mus musculus with 10 samples.

Results

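The 10 genes described here encode the protein kinases that drive mitosis and the partners of Aurora B in the chromosomal passenger complex: Cdca8, Aurkb, Birc5, Incenp, Aurka, Plk1, Nek2, Bub1, Bub1b and Ttk. They were taken by name, as the probe sets whose single gene symbol in the platform's annotation is one of these symbols. Each of the 10 had exactly 1 probe set, and all 10 passed the filter on dim genes, out of 22180 named genes on the array of which 16635 were tested. The tissue was nasal respiratory epithelium of mouse embryos (E16.5), cut by laser capture from sections of formalin-fixed, paraffin-embedded tissue, and its RNA was hybridised to Affymetrix arrays, with 1 array for each sample. The controls were 5 wild-type (WT) samples, all female by their labels except WT 3. They were compared with 5 triple knockout (TKO) samples that lacked miR-34a (miR-34a-/-), the miR-34b/c pair (miR-34b/c-/-) and the miR-449 cluster (miR-449a/b/c-/-). TKO 1 and TKO 3 were female, and TKO 2, TKO 4 and TKO 5 were male. The labels name no strain, litter or drug treatment, and do not say that each sample is a separate embryo, so p-values measure only the spread between these samples, which may be technical in part.

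The chromosomal passenger complex moves from the inner centromere to the spindle midzone during mitosis and corrects wrong attachments of chromosomes to microtubules. Aurora A and Plk1 mature the centrosomes and build the spindle, Nek2 loosens the linker between centrosomes, and Bub1, BubR1 (Bub1b) and Mps1 (Ttk) run the spindle checkpoint, which holds anaphase back until all chromosomes are attached. Transcripts of these genes are known to peak in G2 and M phase, so in tissue their level depends on how many cells divide; multiciliated cells, which have left the cell cycle, are known to use parts of the mitotic kinase network when they amplify centrioles. In bulk samples such as these, more cells expressing a gene and more RNA per cell cannot be told apart.

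The microRNAs removed from the TKO samples share the bases that pair with their targets. These are the mature forms found in the RefSeq table (GRCm38.p6), 5′ to 3′, with the seed, bases 2 to 8, in capitals; miR-34c and miR-449b are not shown.
miR-34a-5p (chr4:150068473-150068494, plus strand): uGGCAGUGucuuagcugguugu
miR-34b-5p (chr9:51103610-51103632, minus strand): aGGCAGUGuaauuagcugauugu
miR-449a-5p (chr13:113037549-113037570, plus strand): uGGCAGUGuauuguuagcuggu
miR-449c-5p (chr13:113036008-113036028, plus strand): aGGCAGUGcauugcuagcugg
All 4 carry the same seed. Whether the transcripts of the 10 genes hold sites for it was not analysed here.

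Promoters of mitotic genes are known for CCAAT boxes, bound by NF-Y, and for the cell cycle homology region TTTGAA, bound by the MuvB core that the DREAM complex and B-Myb-MuvB share. RefSeq promoters (GRCm38.p6, 250 bases before to 50 bases after the annotated start) were at hand for 8 of the 10 genes; Aurkb and Incenp were not searched. CCAAT, read on both strands, was found in 7 of the 8 promoters, all but that of Birc5, and in 37.4% of all 32851 promoters in the table. TTTGAA, read on both strands, was found in 5 of the 8, among them those of Aurka, Plk1, Bub1b and Ttk, and in 17.9% of all promoters. The E2F-type sequences TTTCCCGC and TTTGGCGC were found in none of the 8, and in 1.07% and 0.514% of all promoters.

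The 120 bases before the start are shown for the 3 genes whose change passed the test and for Nek2, the 1 gene whose change was below 0. CCAAT, or ATTGG where it lies on the other strand, is in capitals.
Cdca8 (chr4:124936918-124937037, minus strand): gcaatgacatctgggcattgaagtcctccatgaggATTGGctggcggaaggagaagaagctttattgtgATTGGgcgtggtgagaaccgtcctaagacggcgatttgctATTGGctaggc
Aurka (chr2:172370571-172370690, minus strand): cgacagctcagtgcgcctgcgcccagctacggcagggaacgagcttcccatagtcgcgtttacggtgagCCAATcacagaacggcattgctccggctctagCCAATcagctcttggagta
Bub1b (chr2:118598091-118598210, plus strand): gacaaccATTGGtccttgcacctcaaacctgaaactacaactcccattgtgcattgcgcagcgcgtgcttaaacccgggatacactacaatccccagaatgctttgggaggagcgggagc
Nek2 (chr1:191821353-191821472, plus strand): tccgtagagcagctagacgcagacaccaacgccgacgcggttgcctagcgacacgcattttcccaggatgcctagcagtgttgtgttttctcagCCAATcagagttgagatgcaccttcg
The Cdca8 window holds 3 of these boxes, that of Aurka 2, and those of Bub1b and Nek2 1 each. In Cdca8 and Aurka the boxes start at 51 bases before the annotated start and at other distances, and in Nek2 the box starts 26 bases before it.

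TTTGAA lay close to the annotated start in the promoters of Aurka, Plk1, Bub1b and Ttk. The 30 bases around it are shown for them with the match in capitals (TTCAAA where it lies on the other strand).
Aurka (chr2:172370521-172370550, minus strand): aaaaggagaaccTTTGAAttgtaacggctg
Plk1 (chr7:122159453-122159482, plus strand): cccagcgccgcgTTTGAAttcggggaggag
Bub1b (chr2:118598231-118598260, plus strand): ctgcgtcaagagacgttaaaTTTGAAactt
Ttk (chr9:83834684-83834713, plus strand): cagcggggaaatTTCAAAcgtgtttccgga
Counted from the annotated start as base 1, the match began at base 33 in Aurka, 31 in Plk1, 41 in Bub1b and 8 in Ttk. A match is a run of letters, not evidence of binding. These are 4 of the 5 promoters with a match, so no split of carriers by the test below is given.

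The comparison, TKO minus WT, asks what happens to these transcripts in the nasal epithelium when both microRNA families are lost. Of the 10 genes, 3 rose in TKO, Cdca8, Aurka and Bub1b, none fell and 7 did not pass (limma with labelled sex in the model, adjusted p below 0.05 over all 16635 genes). Over all genes tested, 4.39% were higher and 1.12% lower by the same rule. At an unadjusted p below 0.05, 9 of the 10 were higher and none lower, where 13.2% of all genes were higher. The median log2 change of the 10 was 0.31, against -0.00052 over all genes tested. Every TKO array lay above every WT array for 3 of the 10, Cdca8, Aurka and Bub1, as it did for 5.54% of all genes. These values describe the 10 genes and are no test of them as a set.

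**Figure D1:**
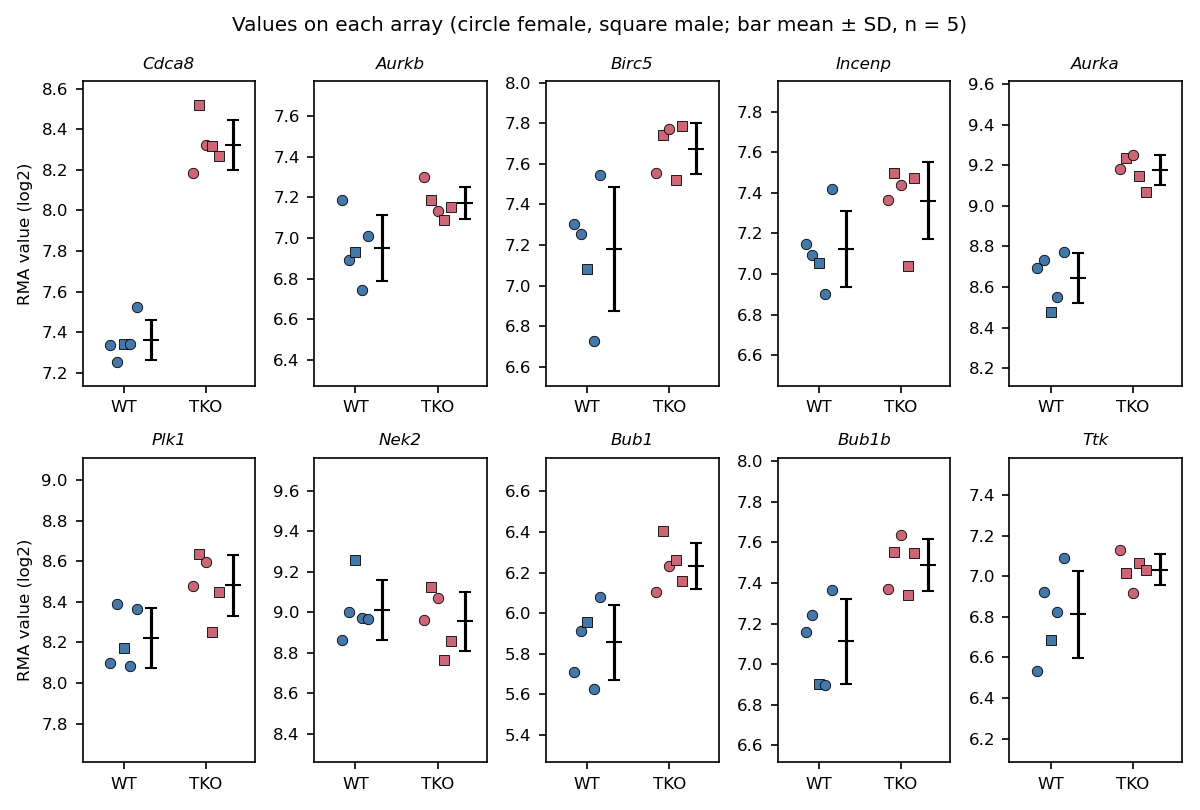
RMA value (log2, y axis, each panel spanning the same number of log2 units) of the 10 genes on each array by genotype, with females as circles, males as squares and the mean ± SD of 5 arrays beside them. The genotypes separate without overlap for Cdca8, Aurka and Bub1, while Nek2 has its highest value on the WT male array at 9.26.

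Cdca8 encodes borealin, the subunit that with survivin brings the passenger complex to the centromere. On WT 1 to WT 5 its log2 values were 7.34, 7.25, 7.34, 7.34 and 7.52, and on TKO 1 to TKO 5 they were 8.19, 8.52, 8.32, 8.32 and 8.27. The lowest TKO array lay above the highest WT array, and the arrays of each genotype lay close together. The mean went from 7.36 ± 0.10 in WT to 8.32 ± 0.12 in TKO (SD, n = 5 each). With sex in the model Cdca8 rose 1.92-fold, with a 95% interval of 1.69 to 2.18 (limma adjusted p = 0.00023; exact permutation p = 0.00794, the smallest that 5 against 5 arrays can give). Its 95% interval lay above those of all the other genes but Birc5, and its call held in all 22 alternative settings, where the log2 change ran from 0.89 to 0.99.

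The other 3 subunits of the passenger complex did not pass. Birc5 encodes survivin, which joins borealin in the targeting module; its values were 7.30, 7.25, 7.08, 6.73 and 7.55 on WT 1 to WT 5 and 7.55, 7.74, 7.77, 7.52 and 7.79 on TKO 1 to TKO 5. The WT arrays were spread widely, from WT 4 at the bottom to WT 5, which reached the lower TKO arrays, and 4 of 5 TKO arrays lay above every WT array. The log2 change of Birc5 was 0.51 with a standard error of 0.15 (limma adjusted p = 0.067; exact permutation p = 0.0159). Of the 10 fits that leave out 1 array Birc5 passed in 1, that without WT 5, at 0.58 (limma adjusted p = 0.0203). Without TKO 3 it was at 0.47 (limma adjusted p = 0.218). It passed in 4 of the 22 alternative settings.

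Aurkb, the kinase of the complex, ranged from 6.74 to 7.19 on WT arrays and from 7.09 to 7.30 on TKO arrays. Its log2 change was 0.24, with a 95% interval of 0.035 to 0.45 (limma adjusted p = 0.169), and only 1 TKO array lay above every WT array, since WT 1 was high. Incenp, the scaffold that binds and activates Aurora B, ranged from 6.90 to 7.42 on WT arrays and from 7.04 to 7.50 on TKO arrays. The log2 change of Incenp was 0.27, with a 95% interval of 0.0012 to 0.53 (limma adjusted p = 0.236). For Incenp WT 5 lay among the TKO arrays and TKO 4 among the WT arrays. On the log2 scale the interval of Cdca8, from 0.76 to 1.12, lay above those of Aurkb and Incenp, while that of Birc5, from 0.19 to 0.83, overlapped all 3; the differences between subunits were not tested.

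Aurka, the centrosome and spindle kinase, is another gene whose genotypes did not overlap. Its values were 8.69, 8.73, 8.48, 8.55 and 8.77 on WT 1 to WT 5 and 9.18, 9.24, 9.25, 9.15 and 9.07 on TKO 1 to TKO 5. The TKO arrays spanned a narrow range, and the highest WT array, WT 5, lay below all of them. The mean went from 8.64 ± 0.13 to 9.18 ± 0.074 (SD, n = 5 each), and with sex in the model Aurka rose 1.50-fold, with a 95% interval of 1.34 to 1.66 (limma adjusted p = 0.00105; exact permutation p = 0.00794). The call held with each array left out in turn. It was missed among females only (log2 change 0.53, limma adjusted p = 0.0589) and with a score of non-epithelial markers as a covariate (0.48, limma adjusted p = 0.0597).

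Plk1, which acts at centrosomes, kinetochores and the midzone, ranged from 8.08 to 8.39 on WT arrays and from 8.25 to 8.64 on TKO arrays. Its log2 change was 0.29 (limma adjusted p = 0.111; exact permutation p = 0.0397), with 4 TKO arrays above every WT array and TKO 4 among the WT arrays.

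Nek2, the kinase that separates the centrosomes at mitotic entry, was the exception among the 10. Its values were 8.86, 9.00, 9.26, 8.97 and 8.97 on WT 1 to WT 5 and 8.96, 9.12, 9.07, 8.76 and 8.86 on TKO 1 to TKO 5, so that the genotypes overlapped throughout. The log2 change was -0.082, with a 95% interval of -0.29 to 0.13 (limma adjusted p = 0.692; exact permutation p = 0.548). That interval lay below those of Cdca8, Aurka, Birc5 and Bub1b and overlapped those of the other 5 genes. The highest value was that of WT 3, the WT male. Without WT 3, or among females only, the change was 0.063, and a genotype by sex interaction for Nek2 was -0.40 (male minus female effect, SE 0.17, limma adjusted p = 0.994, unadjusted p = 0.0398), resting on 1 WT male. For the other 9 genes the interaction lay between -0.048 and 0.24, with adjusted p from 0.994 to 0.999.

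Bub1b encodes BubR1, the part of the mitotic checkpoint complex that blocks the anaphase-promoting complex. Its values were 7.16, 7.24, 6.90, 6.90 and 7.36 on WT 1 to WT 5 and 7.37, 7.55, 7.64, 7.34 and 7.55 on TKO 1 to TKO 5. WT 5 lay just above the lowest TKO array, so that the genotypes overlapped by that array alone. With sex in the model Bub1b rose 1.34-fold, with a 95% interval of 1.14 to 1.59 (limma adjusted p = 0.0463; exact permutation p = 0.0159). The call was marginal: of the 10 fits that leave out 1 array it held in 2, those without WT 5 and without TKO 1, and without WT 3 the log2 change was 0.34 (limma adjusted p = 0.269). It held in 9 of the 22 alternative settings. Among those that lost it were no filter on dim genes, quantile normalization and no intensity trend (limma adjusted p = 0.0566, 0.0518 and 0.0553).

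Bub1, the kinase that marks centromeres for the passenger complex through histone H2A, had no overlap between genotypes and yet did not pass. Its values were 5.71, 5.91, 5.96, 5.63 and 6.08 on WT 1 to WT 5 and 6.10, 6.40, 6.23, 6.26 and 6.16 on TKO 1 to TKO 5. The gap between the highest WT array and the lowest TKO array was small beside the spread within each genotype. The log2 change was 0.33 with a standard error of 0.11 (limma adjusted p = 0.101; exact permutation p = 0.00794). Ttk, the kinase Mps1 that starts checkpoint signalling at kinetochores, ranged from 6.53 to 7.09 on WT arrays and from 6.92 to 7.13 on TKO arrays. Its log2 change was 0.24 (limma adjusted p = 0.236; exact permutation p = 0.0714), and only TKO 1 lay above every WT array.

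**Figure D2:**
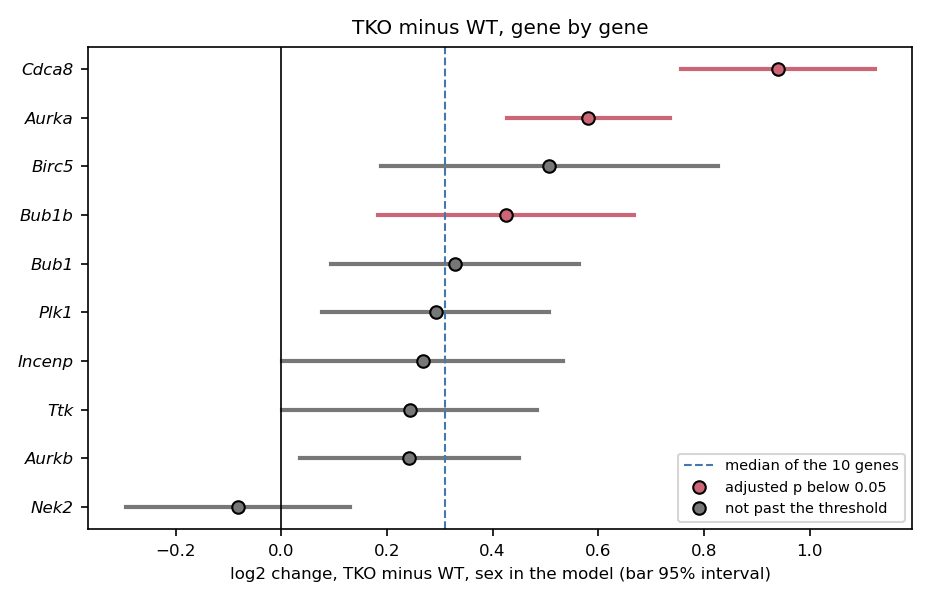
Log2 change, TKO minus WT with sex in the model (x axis), of the 10 genes, with 95% intervals as bars; red marks an adjusted p below 0.05, and the dashed line is the median of the 10 at 0.31. Cdca8 stands above the rest at 0.94, and Nek2 at -0.082 is the only gene below 0.

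Within a genotype, some samples were high or low for most of the 10 genes. Among WT samples, WT 5 had the highest value for 7 of the 10 genes and WT 4 the lowest for 6. Among TKO samples, TKO 2 was highest for 5 genes and TKO 4 lowest for 6. Averaged over the 10 genes, each centred on its mean over all arrays, the WT samples lay between -0.34 (WT 4) and 0.0043 (WT 5) and the TKO samples between 0.071 (TKO 4) and 0.28 (TKO 2). The difference between WT 4 and WT 5 was thus nearly as large as that between the genotype means, -0.18 and 0.18. The SD among WT samples was larger than that among TKO samples for 7 of the 10 genes. The male minus female term of the model did not pass for any of the 10, with adjusted p from 0.721 upwards. In the fit without WT 5, 5 genes passed: Cdca8, Aurka, Bub1b, Birc5 and Bub1. Over all genes, 886 were higher in that fit, against 730 in the main fit.

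**Figure D3:**
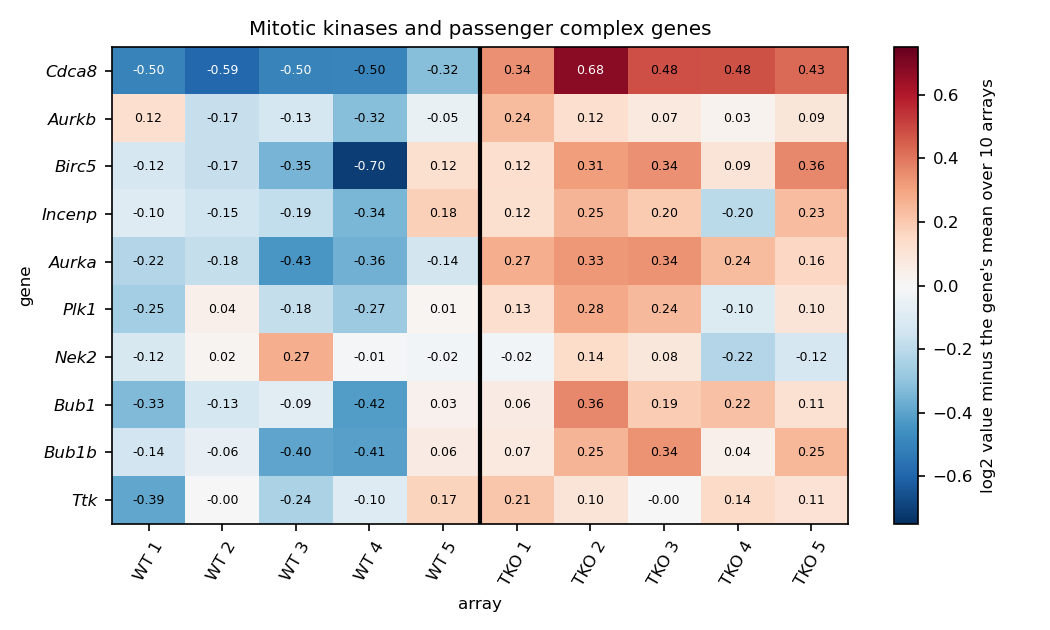
Log2 value minus the gene's own mean over the 10 arrays (colour and printed number) for the 10 genes (rows) on each array (columns, WT left of the line, TKO right). Cdca8 is negative on every WT array and positive on every TKO array, while WT 5 is above the mean for 6 genes and TKO 4 below it for 3.

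Markers of other cells were read beside these values. Epithelial markers were bright, with Krt8 at 11.57 ± 0.017 in WT and 11.60 ± 0.075 in TKO, and Foxj1, the master factor of motile cilia, was at 10.86 ± 0.099 and 11.04 ± 0.086 (SD, n = 5 each). None of 11 epithelial genes passed in limma (unadjusted, none higher and 2 lower), and Cfap43 among 8 multiciliated and Ngfr among 6 basal cell genes fell. Unadjusted, 1 multiciliated gene was higher and 3 were lower, and 1 basal cell gene was higher and 2 were lower. Of the model's changes, 4 of 11 epithelial, 2 of 8 multiciliated and 1 of 6 basal cell ones were above 0. The medians of these lists were -0.052, -0.092 and -0.18. Of 7 skeletal muscle genes 2 fell, Tnnt3 (log2 change -1.01) and Ttn (-0.56), and of 9 mesenchymal genes 1 fell, Col3a1 (-0.48). With sex in the model, all 7 muscle and all 9 mesenchymal changes were below 0, with medians of -0.74 and -0.41. At an unadjusted p below 0.05 in limma 6 and 4 of them were lower. The share of all tested genes lower at that unadjusted cut is not given here. Unadjusted counts of lower genes, for these and the other lists, therefore cannot be set against it. The plain means of Col1a2 (10.69 to 10.84), Twist1 (6.53 to 6.62) and Pdgfrb (6.52 to 6.58) were nevertheless higher in TKO than in WT. Those of the other mesenchymal genes and of all 7 muscle genes were lower. The log2 of the summed muscle signal ranged from 8.32 to 10.49 on WT arrays and from 8.19 to 9.23 on TKO arrays, and that of the mesenchymal genes from 11.08 to 13.09 and from 10.81 to 13.11. None of 5 endothelial, 8 leukocyte, 4 cartilage, 3 glial, 6 neuronal and 1 erythroid genes passed in limma (unadjusted, 1 endothelial and 1 glial gene were lower and no gene of these lists was higher). No marker can be called absent, since RMA values have no zero and no detection call was used.

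A score of the 6 non-epithelial lists (mesenchyme, endothelium, muscle, cartilage, leukocytes and glia), centred per gene, ranged from -0.36 to 0.44 on WT arrays and from -0.41 to 0.22 on TKO arrays. With that score as a covariate Cdca8 alone of the 10 passed, at a log2 change of 0.91 (limma adjusted p = 0.0141). Over all genes tested, 55 were higher in that fit, against 730 in the main fit. The median of the 10 was then 0.18, and the changes of Bub1b, Birc5, Bub1 and Plk1 were 0.25, 0.27, 0.13 and 0.061. Those of Aurka, Aurkb, Ttk and Incenp were 0.48, 0.22, 0.15 and 0.12, and that of Nek2 was -0.20. The part that the makeup of the captures plays in the smaller changes was not tested beyond this fit.

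Among the activators and partners of Aurora and Polo kinases, 10 of 17 tested genes rose, none fell and 7 did not pass in limma (unadjusted, 13 higher and none lower), with a median log2 change of 0.42. Haspin, the kinase whose histone H3 mark recruits the passenger complex, rose 1.44-fold (5.31 ± 0.058 to 5.78 ± 0.083). Kif20a, the kinesin that carries the complex to the midzone, rose 1.50-fold, Sgo2a, a shugoshin that binds it at centromeres, 1.38-fold, and Ect2, the cytokinesis factor controlled by Plk1, 1.56-fold. Tpx2 and Bora, which activate Aurora A and Plk1, rose 1.35-fold and 1.41-fold (limma adjusted p = 0.0229 and 0.0437); these 2 were named after their values were seen. The count was 1 without WT 3, 5 without TKO 3 and 6 without TKO 1, and 0 among females only and with the non-epithelial score. With the score the median was 0.24 and all 17 changes were above 0. Over all genes the increases numbered 191, 247, 473, 52 and 55 in these fits, in the same order, against 730 in the main fit.

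Among the checkpoint partners, 7 of 13 rose, none fell and 6 did not pass in limma (unadjusted, 11 higher and none lower), and all 13 changes were above 0 (median 0.39). Knl1, the kinetochore platform on which Bub1 and BubR1 assemble, rose 1.70-fold (7.38 ± 0.18 to 8.14 ± 0.094). Zwilch, of the RZZ complex, rose 1.57-fold, Cenpe, the kinesin that acts with BubR1, 1.41-fold, and Cdc20, the activator that the checkpoint restrains, 1.33-fold. Without WT 3, TKO 3 or TKO 1 the count was 2, 3 or 4, and it was 0 with the non-epithelial score and among females only. Over all genes the increases numbered 191, 247, 473, 55 and 52 in the same order, against 730 in the main fit.

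**Figure D4:**
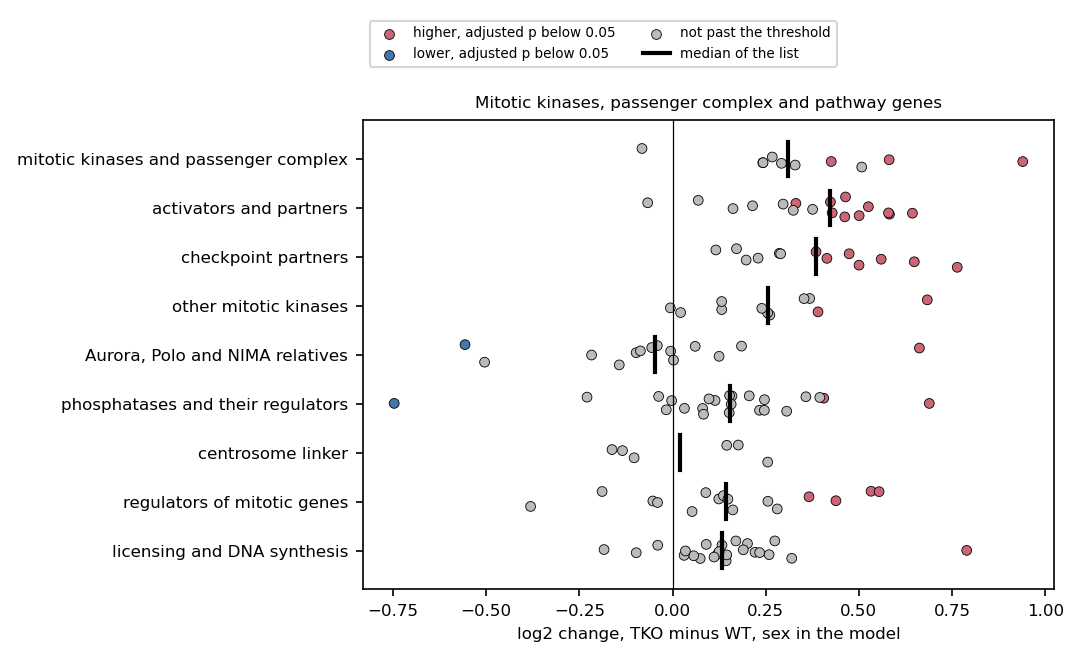
Log2 change, TKO minus WT with sex in the model (x axis), of the 10 genes and of 8 lists of related genes (rows), 1 point a gene, with red and blue for genes past an adjusted p of 0.05 and black ticks for medians. The medians run from -0.048 for the Aurora, Polo and NIMA relatives to 0.42 for the activators and partners.

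Other kinases of mitosis gave 2 increases among 11 tested genes and no decrease (unadjusted, 6 higher and none lower; median 0.26). Pbk, a kinase of dividing cells, rose 1.61-fold (7.40 ± 0.21 to 8.02 ± 0.072), and Cdk1, the central kinase of mitotic entry, 1.31-fold (limma adjusted p = 0.0355). The call of Cdk1 was lost in 12 of 22 settings. Neither gene passed among females only or with the non-epithelial score, and with the score 7 of the 11 changes were above 0. Vrk1 (log2 change 0.37) and Slk (0.26) missed the threshold.

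The relatives of the 10 by kinase family are given for comparison, and no difference between the groups of genes was tested. Of 14 Aurora, Polo and NIMA family genes, 1 rose, 1 fell and 12 did not pass in limma, with a median of -0.048. Unadjusted, 1 was higher and 2 were lower. Plk4, the kinase of centriole duplication, rose 1.58-fold (9.20 ± 0.29 to 9.80 ± 0.099), and Plk5, a Polo relative without a working kinase domain, had a log2 change of -0.56 (limma adjusted p = 0.0284, lost in 7 of 21 settings). Neither passed without WT 3, without TKO 3, among females only or with the non-epithelial score. Nek5 and Nek7, further NIMA kinases, were at -0.50 and -0.22 and did not pass. Of 6 genes of the centrosome linker and Nek2 pathway none passed in limma (unadjusted, 1 higher and none lower). Kif24 passed in 4 of 22 alternative settings. These were no sex term, a replicate block, the filter on dim genes at the median, and TKO 1 left out. Kif24, the kinesin that Nek2 phosphorylates to keep cilia from forming, was at 0.26 (limma adjusted p = 0.053), Lrrc45 at -0.16, Cep68 at 0.18 and Cep250 at -0.13.

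Of 23 phosphatases and phosphatase regulators that oppose or reset these kinases, 2 rose, 1 fell and 20 did not pass in limma. Unadjusted, 7 were higher and 2 lower. There were 5 increases without TKO 4 and 1 in 7 of the 10 fits that leave out 1 array. Among females only or with the non-epithelial score 1 gene rose and none fell. Over all genes, 689 were higher without TKO 4 and from 191 to 644 in those 7 fits. The number was 52 among females only and 55 with the score, against 730 in the main fit. Ppp2r5a, a B56 subunit of the PP2A family that BubR1 brings to kinetochores, rose 1.61-fold (7.07 ± 0.11 to 7.80 ± 0.088; limma adjusted p = 0.00072), a call held in all 22 settings. Ppp2r2a, a B55 subunit of PP2A, rose 1.32-fold (limma adjusted p = 0.0312, lost in 9 of 22 settings). Cdc14a, a phosphatase known for its role at centrosomes and cilia, fell by 0.75 on the log2 scale (8.56 ± 0.27 to 7.88 ± 0.17; limma adjusted p = 0.00861), and without WT 3 it was at -0.55 and did not pass. Cdca2, which brings a PP1 phosphatase to chromatin, was at 0.31 (limma adjusted p = 0.0539).

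Of 16 regulators that control transcription of mitotic genes, 4 rose, none fell and 12 did not pass in limma (unadjusted, 5 higher and 2 lower). Foxm1, a transcription factor of G2 and M phase genes, rose 1.29-fold (6.78 ± 0.17 to 7.06 ± 0.12; limma adjusted p = 0.0262). Lin54, the MuvB subunit that reads TTTGAA, rose 1.36-fold, E2f5 1.47-fold and Tfdp2, a DNA-binding partner of E2F factors, 1.45-fold. Mybl2, which was named after its value was seen, had a log2 change of -0.38 (limma adjusted p = 0.0631). The count of increases was 1 without WT 3 and 2 without WT 1, WT 4, TKO 1 or TKO 3. It was 0 among females only and with the non-epithelial score, and with the score the median was 0.066 and 9 of the 16 changes were above 0. Over all genes, 191 were higher without WT 3. Without WT 1, WT 4, TKO 1 and TKO 3 the number was 535, 531, 473 and 247. It was 52 among females only and 55 with the score, against 730 in the main fit. Among 23 genes of replication licensing and DNA synthesis only Gins1 passed (1.73-fold, limma adjusted p = 0.0219), with a median of 0.13. Of the 23 changes 20 were above 0, and unadjusted 5 genes were higher and none lower. Rfc5, Rrm1 and Gins2 were at 0.27, 0.32 and 0.17 and did not pass. Gins1 missed the threshold without WT 3, without TKO 3, among females only and with the non-epithelial score.

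The genes whose values followed the mean of the 10 most closely were found by the root mean square difference between centred log2 values over the 10 arrays. The 8 closest were Dlgap5, a spindle protein acted on by Aurora A (0.049), Metap1, a methionine aminopeptidase (0.052), the glutamine synthetase gene Glul (0.054), Mfsd14a (0.055), the proteasome subunit gene Psmd1 (0.055), Fbxo34 (0.056), Nop58, of small nucleolar ribonucleoproteins (0.056) and Chtf8 (0.056). The median over all other tested genes was 0.252. Among the 10 themselves the difference from their own mean ran from 0.087 for Bub1b to 0.313 for Cdca8. The profile holds the genotype difference, so genes close to it also differ between genotypes by the way they were chosen; their log2 changes were 0.30 to 0.43, and all but Psmd1 (limma adjusted p = 0.0556) passed.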

How the data were processed

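The authors deposited RMA values, which are log2 signals. The submitters' processing notes name the Affymetrix Expression Console as the program, without a version. RMA corrects background, equalises the distributions of arrays and summarises probes. Forcing arrays to 1 distribution hides any overall shift of RNA, and scanner files were not used. The arrays' number limits the precision. Of 41345 probe sets 23521 had 1 gene symbol, 1814 several and 16010 none; where several probe sets named 1 of the 22180 genes, the one of highest mean signal stood for it, and genes below the 25th percentile (4.58) were left out.

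The genotype effect was estimated in R 4.3.3 with limma 3.58.1, with sex and genotype in the model, variances moderated with an intensity trend, two-sided tests, Benjamini-Hochberg adjustment over 16635 genes, threshold 0.05. Folds and log2 changes come from this model; means and SDs are unadjusted. Exact two-sided permutation tests used all 252 assignments. They tested the difference of the plain means, without sex, and their p-values were not adjusted over genes. The scripts were tested on simulated data. All 10 members were named, up to 4 genes of each list by smallest p, and the 8 genes closest in profile. Of the listed genes, Nedd9, Aurkaip1, Cenpu, Nek1, Pkmyt1 and Rfc4 had no probe set of their own symbol alone. The members and lists were chosen with earlier results of these data known. The alternatives were no sex term, a replicate block, other filters, scalings, variance models, array weights, mean probe sets, females only, the marker score as a covariate and each array left out. The stretch around TTTGAA in 1 promoter is not reported here.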

Additional observations from a re-analysis of the deposited data

How the results depend on the processing

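Members counted as higher in TKO were 5 without sex in the model (Birc5 and Bub1 added), 1 among females only and 1 with the non-epithelial score. They were 2, with Bub1b lost, without the filter on dim genes, with quantile normalization and without the intensity trend. With array weights they were 4 (Birc5 added), and with 1 array left out 2 to 5. None was lower in any of the 22 settings. With the replicate number as a block, 5 members passed, Birc5 and Plk1 added, and 282 genes over all were lower; the deviations of same-numbered arrays correlated from -0.127 to 0.379 and only 1 of 5 pairs matched best, so the arrays share only a number. The median change of the members was 0.18 with the score. Nek2 went to 0.063 among females only, and ran from -0.16 to 0.063 with 1 array left out. Over all genes, 730 were higher and 186 lower; the counts were 52 and 4 among females only and 55 and 5 with the score, 121 were lower after centring each array on its median, and with 1 array left out the higher ran from 191 (without WT 3; 247 without TKO 3 and 473 without TKO 1) to 886 and the lower from 19 to 398. Without WT 3 the genotype effect comes from females alone. The cause of these shifts was not tested. Of 922 values of the 42 named genes under other settings, 798 kept direction and side of the threshold, 100 lost the call, 22 gained it and 2, both of Nek2, changed sign. The number of arrays, 5 a group, limits the precision.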
